A study of Homo sapiens with 51 samples.

Results

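FOS, FOSB, JUN, JUNB, EGR1, IER2, IER3, MYC, ZFP36 and DUSP1 are 10 human genes whose mRNAs are made quickly after a stimulus and, for most of them, decay quickly. They were taken from a list of names and not by a cut on measured values, but with earlier results of these data known. The names were matched by symbol to 10 of the 60664 gene identifiers in the count files. All 10 passed the filter on low counts in every fit. Their levels were read in 50 of 51 RNA sequencing libraries of fractionated K562 cells, an established human chronic myelogenous leukaemia line. The nuclear-labelled replicate 2 of the R376C mutant was left out by the rule that chose the genes.

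Immediate early genes are transcribed within minutes of a growth or stress signal, without the need for new protein, by factors that are already present and are switched on by kinases. Many of the resulting mRNAs carry AU-rich elements, runs of the pentamer AUUUA in the 3′ untranslated region, which are bound by proteins such as the product of ZFP36. That protein recruits the CCR4-NOT complex, whose scaffold is CNOT1, and the complex removes the poly(A) tail, after which the mRNA is decayed. FOS, FOSB, JUN and JUNB encode subunits of the AP-1 transcription factor, EGR1 a zinc finger transcription factor, MYC a transcription factor of growth, IER2 a nuclear protein, IER3 a regulator of survival, and DUSP1 a phosphatase that switches off MAP kinases.

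All libraries come from K562 cells in serum-containing medium, and no stimulus is named in the labels. In the guide set, CRISPR interference (a catalytically dead Cas9 repressor guided to a promoter) was used with guides against CNOT1 (sgCNOT1), DDX3 (sgDDX3) or NUP160 (sgNUP160), with a guide against Gal4 (sgGal4) as control. DDX3, measured here as DDX3X, is a DEAD-box RNA helicase, and NUP160 is a nuclear pore protein. In the transgene set, endogenous DDX3 was knocked down and a lentivirus carried DDX3-G325E, DDX3-R326H, DDX3-R351W, DDX3-R376C, DDX3 R534S, DDX3 T532M or DDX3 WT. Further cells had sgDDX3 and no DDX3 transgene (no transgene below), and the last group was uninfected, so that it differs from the others in infection as well as in DDX3. That the uninfected cells belong with the transgene set is an assumption. Each group had 2 libraries in each labelled fraction, except R376C with 1 in each here. The labels do not say whether replicates were separate cultures or clones, and the guides' effect on protein was not measured here, so p-values measure the spread between libraries, which may be technical.

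Gene counts were 3716160 to 21365000 per nuclear-labelled library (n = 25) and 2354960 to 10386000 per cytoplasmic-labelled library (n = 25). The content of the fractions ran against their labels: the nuclear-retained RNA MALAT1 had 1665 to 3549 CPM in the nuclear-labelled libraries and 20729 to 34091 CPM in the cytoplasmic-labelled ones. Fractions are therefore named only as labelled. The left-out nuclear-labelled R376C replicate 2 had 19578 CPM of MALAT1 and 62.8% of its reads in no gene, leaving out unmapped and multiply mapped reads. That share was 5.14% to 10.5% for the remaining libraries with the nuclear label and 50.4% to 69.2% for those with the cytoplasmic one, so in both measures it was close to the cytoplasmic-labelled libraries. Each guide lowered its target: CNOT1 averaged 43.7 ± 1.40 CPM in sgCNOT1 and 804 ± 5.46 CPM in sgGal4 nuclear-labelled libraries (mean ± SD, n = 2 each), DDX3X 39.9 ± 2.00 CPM in sgDDX3 and 261 ± 6.98 CPM in sgGal4, and NUP160 13.9 ± 2.49 CPM in sgNUP160 and 148 ± 0.684 CPM in sgGal4. DDX3X was less reduced in the transgene set, at 149 ± 0.762 CPM without transgene and 295 ± 9.60 CPM in uninfected cells. With a transgene, nuclear-labelled DDX3X differed between genotypes. It averaged 374 CPM in WT, 301 in R351W, 379 in R534S, 431 in T532M, 456 in R326H, 509 in R376C (1 library) and 560 in G325E. The part of these levels in the mutant comparisons was not tested. Of the 12 K562 and erythroid markers examined, HBE1 was at 0 in every library, and each of the others had reads in every library. Median nuclear-labelled levels were 681 CPM for TFRC, 209 CPM for GATA1 and 5.16 CPM for HBG2. In cytoplasmic-labelled libraries these medians were 1362, 146 and 0.519 CPM. The 12 markers summed to 1626.6 and 1447.8 CPM in sgCNOT1, 1856.9 and 1728.6 CPM in sgNUP160 and 1218.5 and 1234.4 CPM in sgGal4 nuclear-labelled libraries. In cytoplasmic-labelled libraries the sums were 3093.5 and 2143.6 CPM in sgCNOT1, 2052.8 and 1744.2 CPM in sgNUP160 and 2213.3 and 1938.3 CPM in sgGal4, which overlap. The sum of 6 granulocyte and monocyte markers was 35.6 and 37.1 CPM in sgCNOT1 and 15.0 and 12.1 CPM in sgGal4 nuclear-labelled libraries. In cytoplasmic-labelled libraries it was 124 and 101 CPM in sgCNOT1 and 47.8 and 43.8 CPM in sgGal4, while ELANE was at 0 in 24 of 25 libraries of each labelled fraction. With sgNUP160 this sum was 35.0 and 30.7 CPM in nuclear-labelled and 64.3 and 67.9 CPM in cytoplasmic-labelled libraries. ITGAM and LYZ had reads in every library. CD14, CSF1R and MPO were at 0 in 13, 15 and 21 of 25 nuclear-labelled and in 8, 15 and 15 of 25 cytoplasmic-labelled libraries. The sum of 6 lymphocyte markers was 10.4 and 7.71 CPM in sgCNOT1 and 5.48 and 3.14 CPM in sgGal4 nuclear-labelled libraries, and 14.7 and 10.3 CPM in sgCNOT1 and 4.33 and 5.01 CPM in sgGal4 cytoplasmic-labelled ones, with MS4A1 at 0 in all 25 nuclear-labelled libraries and in 24 of 25 cytoplasmic-labelled ones. The 8 fibroblast and epithelial markers summed to 436 and 374 CPM in sgCNOT1 and 306.6 and 324.9 CPM in sgGal4 nuclear-labelled libraries, and overlapped in cytoplasmic-labelled ones. The part of these markers in the results below was not tested.

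The AU-rich stretches that gave these mRNAs their name are shown first, because the members differ in them. For 9 members, the 30 bases of the 3′ untranslated region with the most AUUUA pentamers were read from GENCODE 29 transcripts on GRCh38, written 5′ to 3′ on the mRNA's strand with T for U and with the pentamers in capitals:
FOS (chr14:75282051-75282080, plus strand): gttttattgtgtttttaATTTATTTAttaa
FOSB (chr19:45474410-45474439, plus strand): tttatgaggcaaATTTAtattttttaatat
JUN (chr1:58780951-58780980, minus strand): ATTTAtaatgttagtagaaattttacaata
JUNB (chr19:12793048-12793077, plus strand): atattgaatataatatatttgtgtATTTAa
EGR1 (chr5:138469053-138469082, plus strand): tatttttttaactgaaaatgtaaATTTAta
IER2 (chr19:13154194-13154223, plus strand): ttttttgttttgtttgtttgtttgttttta
IER3 (chr6:30743651-30743680, minus strand): tcctaattaatATTTAtatgtATTTAtgta
ZFP36 (chr19:39409208-39409237, plus strand): ATTTAttctaatatgattttatagtATTTA
DUSP1 (chr5:172768632-172768661, minus strand): ttATTTATTTAacttcacccgagttcctct

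Within these 30 bases FOS, IER3, ZFP36 and DUSP1 held 2 pentamers, in FOS and DUSP1 overlapping by a base. FOSB, JUN, JUNB and EGR1 held 1. IER2 held none there and none in its whole 3′ untranslated region of 1050 bases, so by this measure the label of an AU-rich mRNA is not borne out for IER2 in the transcript chosen. Over the whole region the counts were 6 for IER3, 5 for FOS and ZFP36, 4 for MYC and DUSP1, 3 for FOSB and JUN, 2 for JUNB and 1 for EGR1. Per kilobase the highest densities were 8.40 pentamers for MYC, 8.14 for IER3 and 7.01 for ZFP36. Of 11437 coding genes tested in the nuclear-labelled guide libraries, 68.4% held at least 1 AUUUA, with a median count of 2, and 2.10% reached the density of MYC. The longer motif UUAUUUAUU was present in FOS, ZFP36 and DUSP1, and in 8.14% of these coding genes.

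RefSeq promoter windows (GRCh38.p14, 250 bases before to 50 after the start) were available for 8 of the 10 members. Those of EGR1 and JUNB are shown because, of these 8, these genes had the largest fold changes with sgCNOT1 that were called in both labelled fractions. Capitals mark CArG boxes (the site of serum response factor), TGACG on either strand and TATAAA on either strand:
EGR1 (chr5:138465229-138465528, plus strand): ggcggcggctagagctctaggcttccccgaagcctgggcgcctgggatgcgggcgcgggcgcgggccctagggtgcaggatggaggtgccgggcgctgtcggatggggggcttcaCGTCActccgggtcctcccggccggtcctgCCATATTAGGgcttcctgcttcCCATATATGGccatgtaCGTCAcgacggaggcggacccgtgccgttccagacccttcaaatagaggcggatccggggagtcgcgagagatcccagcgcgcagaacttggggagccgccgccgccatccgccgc
JUNB (chr19:12791236-12791535, plus strand): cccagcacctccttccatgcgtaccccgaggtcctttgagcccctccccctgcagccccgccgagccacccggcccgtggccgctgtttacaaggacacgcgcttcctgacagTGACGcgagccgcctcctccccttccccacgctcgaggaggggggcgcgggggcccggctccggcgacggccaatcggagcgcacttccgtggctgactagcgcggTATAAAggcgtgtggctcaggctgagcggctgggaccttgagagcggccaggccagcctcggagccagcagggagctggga

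EGR1 held 2 CArG boxes and 2 TGACG words, and JUNB held 1 TGACG word and 1 TATAAA. A CArG box was found in 1 of the 8 members' windows and in 1.29% of 35116 windows of the same length. Sites outside the windows and variant forms of the box were not searched, so absence here does not show that a gene lacks one. TGACG was found in 7 of 8 and in 24.6% of all windows, and TATAAA in 4 of 8 and in 11.5%. The full TGACGTCA, which contains TGACG on both strands, was found only in DUSP1 of the 8, and in 1.85% of all windows. A match is a string of letters, and factor binding was not measured.

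MYC was the most abundant of the 10 and FOS and FOSB were near the detection floor. CPM values are given on a common TMM scale (a scaling that takes most genes as unchanged) for each labelled fraction, so levels of the same gene can be set side by side across genotypes but not across fractions. Per kilobase of annotated exon, median nuclear-labelled levels over 25 libraries were 129 CPM per kb for MYC, 28.1 for IER2, 24.7 for JUNB, 14.8 for EGR1, 10.5 for IER3, 7.81 for JUN, 4.95 for ZFP36, 4.36 for DUSP1, 0.535 for FOSB and 0.509 for FOS. FOS rested on 2 to 46 reads and FOSB on 7 to 82 reads per nuclear-labelled library, against 1748 to 10231 for MYC. Values for FOS and FOSB therefore carry the largest errors.

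Against sgGal4, IER3 with sgCNOT1 had the largest change of any member in nuclear-labelled libraries, and IER2 and MYC were lower in nuclear-labelled libraries in nearly every comparison that lowered or mutated DDX3. Differences were tested with edgeR's robust quasi-likelihood test on the counts, adjusted by the Benjamini-Hochberg method over all genes tested, and a value such as IER3's 2.59 ± 0.18 with sgCNOT1 is a log2 fold change and its standard error. A gene is called when its adjusted p is under 0.05. In these bulk samples, fewer cells of a type and less RNA per cell cannot be told apart.

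**Figure D1:**
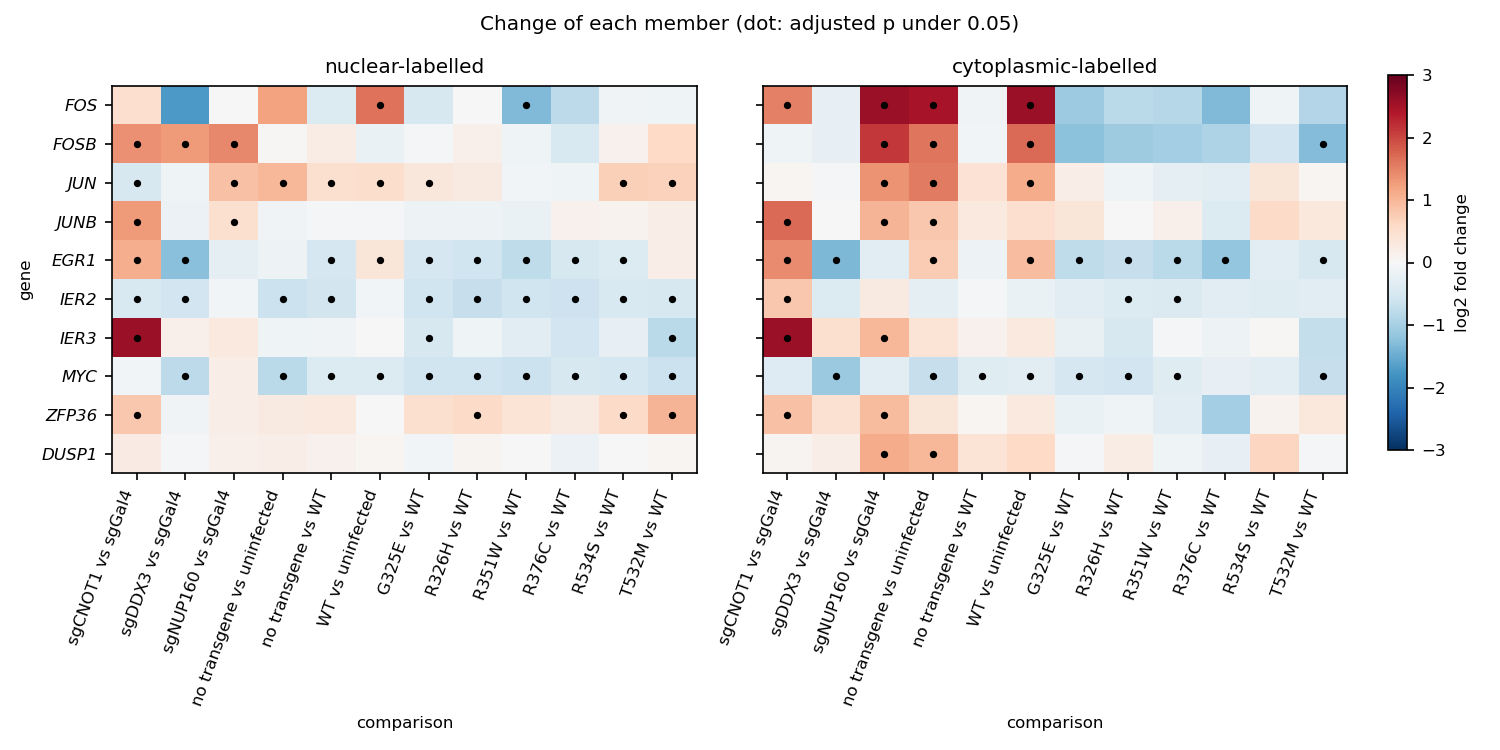
Log2 fold changes (colour, blue lower, red higher) of the 10 genes (rows) in 12 comparisons (columns) for nuclear-labelled and cytoplasmic-labelled libraries, tested group named first, with a dot where the adjusted p was under 0.05. IER3 is dark red with sgCNOT1 (2.59 in both panels), and the MYC and IER2 rows are blue with dots through all 6 mutants in the nuclear-labelled panel.

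With sgCNOT1, IER3, JUNB, EGR1 and ZFP36 rose in both labelled fractions. In the nuclear-labelled libraries 5 of 10 members rose and 2 fell, where 26.5% of all 14324 genes tested were called higher and 23.1% lower (49.6% in either direction). The median log2 fold change was 0.66 over the members and 0.01 over all genes. In the cytoplasmic-labelled libraries 6 of 10 rose and 0 fell by edgeR, with a median of 0.85, where 13% of 16091 genes were called higher, 9.01% lower and 22% in either direction, with a median of 0.01. The 4 remaining members had an unadjusted p of 0.061 (MYC) or more, and DESeq2 called 4 members higher and 0 lower. These and the sgDDX3 and sgNUP160 comparisons below share the sgGal4 libraries.

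IER3 had 55.5 and 45.6 CPM in sgCNOT1, against 7.57 and 9.96 CPM in sgGal4 nuclear-labelled libraries. In cytoplasmic-labelled libraries IER3 had 32.5 and 28.2 CPM in sgCNOT1, against 5.60 and 4.50 CPM in sgGal4. Every sgCNOT1 library lay above every library of the other 12 genotypes in its labelled fraction, and the change was 2.59 ± 0.18 (adjusted p = 1.5e-12) and 2.59 ± 0.25 (adjusted p = 8.3e-06). JUNB had 98.6 and 75.2 CPM in sgCNOT1 and 33.9 and 38.8 CPM in sgGal4 nuclear-labelled libraries, and 50.8 and 53.3 CPM against 17.9 and 14.4 CPM in cytoplasmic-labelled ones. The groups did not overlap, with changes of 1.27 ± 0.13 (adjusted p = 3.6e-09) and 1.69 ± 0.20 (adjusted p = 4.3e-05).

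EGR1 had 128 and 104 CPM in sgCNOT1 and 55.1 and 52.4 CPM in sgGal4 nuclear-labelled libraries (1.10 ± 0.12, adjusted p = 5.1e-09). In cytoplasmic-labelled libraries EGR1 had 144 and 133 CPM in sgCNOT1 and 52.3 and 52.9 CPM in sgGal4 (1.41 ± 0.23, adjusted p = 5.6e-04). Both sgCNOT1 libraries were again the highest of all genotypes in each fraction. ZFP36, which encodes the AU-rich element binding protein named above, had 19.4 and 12.7 CPM in sgCNOT1 and 8.76 and 9.96 CPM in sgGal4 nuclear-labelled libraries (0.81 ± 0.22, adjusted p = 0.0026). In cytoplasmic-labelled libraries ZFP36 had 15.9 and 10.8 CPM in sgCNOT1 and 7.38 and 7.26 CPM in sgGal4 (0.89 ± 0.29, adjusted p = 0.037). The groups did not overlap, but the sgCNOT1 replicates differed by more than the sgGal4 ones, and both ZFP36 calls were lost without sgCNOT1 replicate 1 of the fraction, at 0.49 and 0.57. They were also lost without sgGal4 nuclear-labelled replicate 1, at 0.68, and without either sgGal4 cytoplasmic-labelled library, at 0.87 and 0.85. DESeq2 did not call the cytoplasmic-labelled change (0.89).

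The remaining AP-1 members did not move together. FOS had 2.08 and 1.34 CPM in sgCNOT1 and 0.821 and 2.10 CPM in sgGal4 nuclear-labelled libraries, which overlap. In cytoplasmic-labelled libraries FOS had 4.03 and 3.48 CPM in sgCNOT1 and 1.40 and 1.21 CPM in sgGal4 (1.52 ± 0.51, adjusted p = 0.045), on 19 to 37 and 7 to 11 reads, a call lost by DESeq2 (1.53), with no filter on low counts (1.53) and without sgCNOT1 replicate 1 (1.40), sgGal4 replicate 1 (1.60) or sgGal4 replicate 2 (1.40). FOSB rose in nuclear-labelled libraries, with 3.71 and 3.02 CPM in sgCNOT1 and 1.10 and 1.83 CPM in sgGal4 (1.36 ± 0.41, adjusted p = 0.0063), a call lost without sgGal4 nuclear-labelled replicate 1 (0.86). JUN fell in nuclear-labelled libraries, to 16.1 and 14.3 CPM in sgCNOT1, against 22.2 and 19.4 CPM in sgGal4 (-0.48 ± 0.16, adjusted p = 0.014), a call also lost without that library (-0.37). In cytoplasmic-labelled libraries FOSB (-0.14 ± 0.43) and JUN (0.05 ± 0.33) were not called.

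IER2 went opposite ways in the labelled fractions. It fell to 103 and 80.7 CPM in sgCNOT1, against 122 and 129 CPM in sgGal4 nuclear-labelled libraries (-0.45 ± 0.10, adjusted p = 5.2e-04). It rose to 150 and 222 CPM in sgCNOT1, against 109 and 105 CPM in sgGal4 cytoplasmic-labelled libraries (0.81 ± 0.19, adjusted p = 0.0064), a call lost without sgGal4 replicate 1 (0.81) or 2 (0.77). The groups did not overlap in either fraction. For IER2, the change in the nuclear-labelled libraries over that in the cytoplasmic-labelled ones came to -1.27 ± 0.23 (adjusted p = 8.5e-04), and IER2 was the only member of 10 called in this interaction test. Of 17858 genes 5.83% were called in it, 2.59% higher and 3.24% lower. Without sgCNOT1 cytoplasmic-labelled replicate 1 JUN (-0.88) and MYC (0.61) were called as well.

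MYC and DUSP1 were not called with sgCNOT1 in either fraction. MYC had 463 and 378 CPM in sgCNOT1 and 422 and 458 CPM in sgGal4 nuclear-labelled libraries (-0.08 ± 0.08). The groups overlapped, and a difference was called only without sgCNOT1 replicate 1 (-0.19). In cytoplasmic-labelled libraries MYC had 229 and 157 CPM in sgCNOT1 and 254 and 253 CPM in sgGal4 (-0.38 ± 0.19, adjusted p = 0.16), a difference that was called without sgCNOT1 replicate 1 (-0.68). DUSP1 had 11.6 and 12.2 CPM in sgCNOT1 and 9.86 and 9.96 CPM in sgGal4 nuclear-labelled libraries (0.25 ± 0.20), and its value was 0.08 ± 0.32 in cytoplasmic-labelled ones. Cytoplasmic-labelled counts of called members fell to 3 without either sgGal4 library, and nuclear-labelled ones to 4 without sgGal4 replicate 1.

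**Figure D2:**
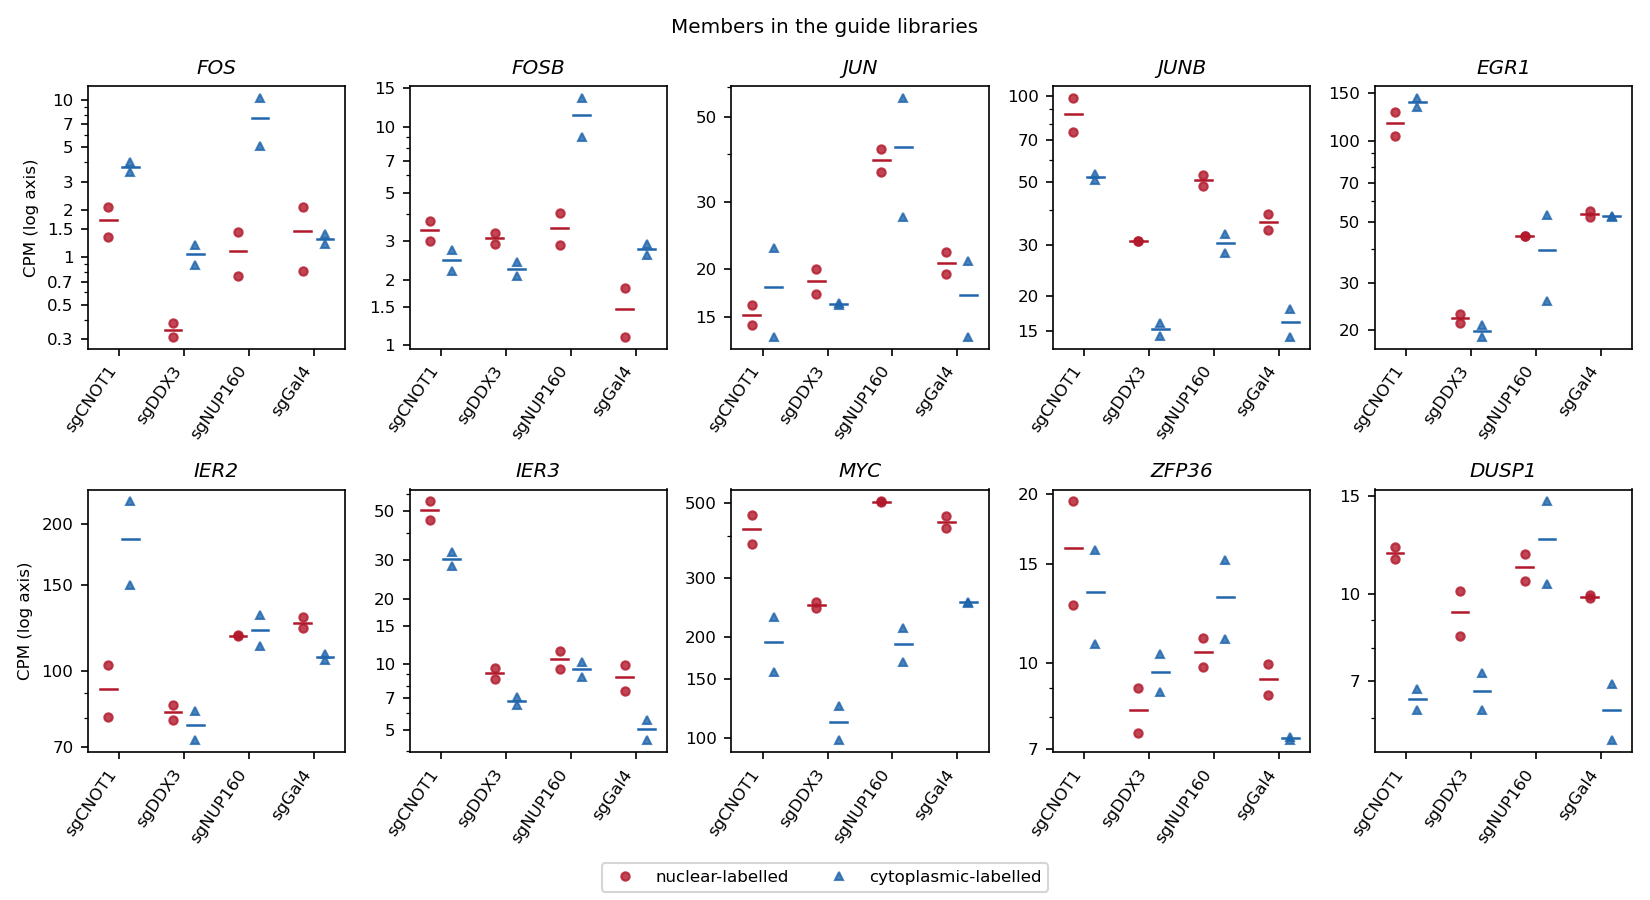
CPM (log axes) of the 10 genes in the guide libraries by genotype, red circles for nuclear-labelled and blue triangles for cytoplasmic-labelled libraries, each point 1 library and each bar the mean of 2. The fractions are scaled separately. IER3, JUNB and EGR1 are highest with sgCNOT1 in both fractions, EGR1 and MYC are lowest with sgDDX3, and the cytoplasmic-labelled points of FOS and FOSB are highest with sgNUP160.

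IER3, JUNB and EGR1 were also higher with sgCNOT1 when it was set directly against the other knockdowns, which share the sgCNOT1 libraries. Against sgDDX3, IER3 was higher by 2.42 ± 0.17 and 2.11 ± 0.26, JUNB by 1.44 ± 0.13 and 1.71 ± 0.21, and EGR1 by 2.35 ± 0.12 and 2.75 ± 0.26 in nuclear-labelled and cytoplasmic-labelled libraries, all called. Against sgNUP160, IER3 was higher by 2.30 ± 0.17 and 1.59 ± 0.26, EGR1 by 1.38 ± 0.11 and 1.75 ± 0.24, and JUNB by 0.78 ± 0.12 and 0.68 ± 0.20, also called. The cytoplasmic-labelled JUNB call against sgNUP160 was lost without sgNUP160 replicate 1 (0.58) or 2 (0.80). Against sgDDX3, 6 members were called higher and 0 lower in nuclear-labelled libraries (28.7% of all genes higher, 26.4% lower, 55.1% in either direction), and 5 higher and 0 lower in cytoplasmic-labelled ones (10.4%, 4.78% and 15.2%), by edgeR and by DESeq2. The 6 included FOS, MYC and ZFP36, and the 5 IER2 and MYC, where the MYC call was lost without sgDDX3 replicate 1 (0.59) or 2 (0.91). JUN had an unadjusted p under 0.05 with a lower value in nuclear-labelled libraries (-0.34). Against sgNUP160, 4 were called higher and 3 lower in nuclear-labelled libraries (27.4%, 23.4% and 50.8%), and 3 higher and 3 lower in cytoplasmic-labelled ones (13.3%, 9.83% and 23.1%). JUN was lower with sgCNOT1 than with sgNUP160, by -1.35 ± 0.15 and -1.31 ± 0.33, the second a call lost without sgNUP160 cytoplasmic-labelled replicate 2 (-0.71), which also lowered that count from 6 to 3.

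The members' AUUUA counts did not order their changes with sgCNOT1. IER3, with 6 pentamers, had the largest rise, but EGR1 with 1 and JUNB with 2 rose in both fractions, while MYC and DUSP1 with 4 each were not called in either. Over coding genes, the median nuclear-labelled change was 0.00 for 3611 genes with no AUUUA and 0.22 for 1368 genes with 10 or more. In cytoplasmic-labelled libraries the same medians ran the other way, 0.14 and -0.16. Genes with more pentamers also had longer 3′ untranslated regions, with medians of 350 and 4359 bases in these classes. The median share of A and T in the region was 47.1% and 64.2%. Spearman correlations with the cytoplasmic-labelled change were -0.39 for that share, -0.19 for AUUUA count and -0.05 for length. With the nuclear-labelled change they were 0.03, 0.10 and 0.09. The parts of length and of A and T share were not tested.

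**Figure D3:**
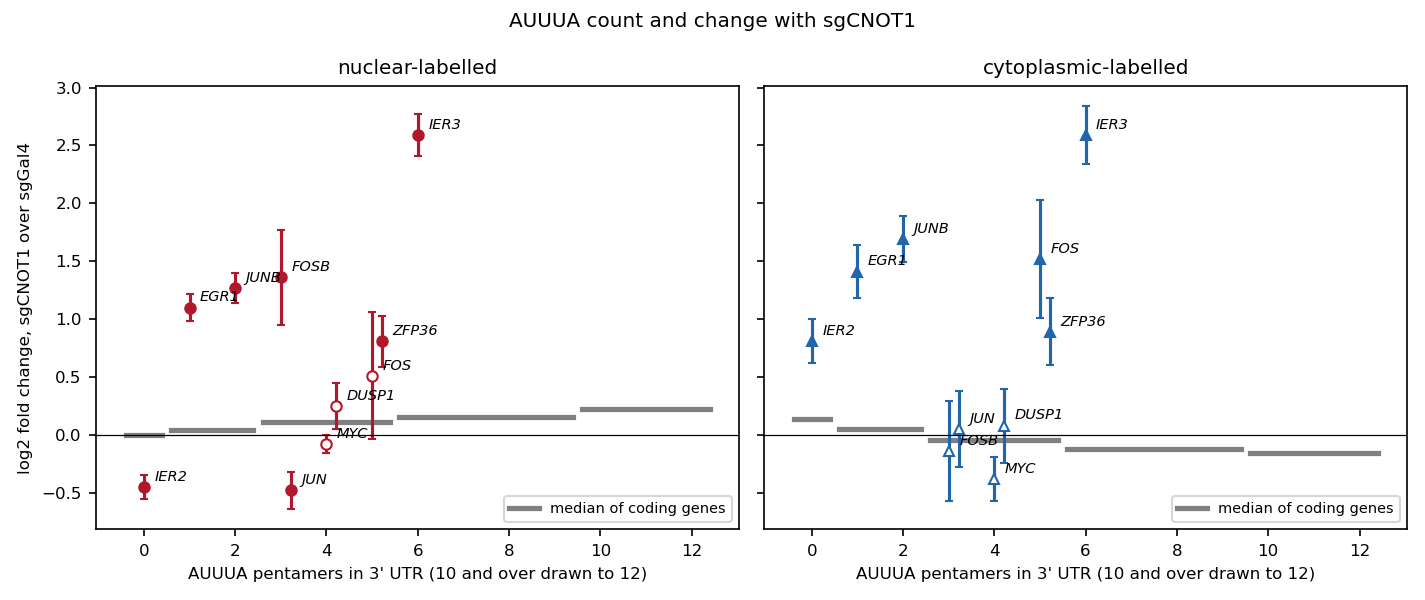
Log2 fold change with sgCNOT1 over sgGal4 (points, with standard error bars) against the number of AUUUA pentamers in the 3′ untranslated region for the 10 genes, filled where called, with points of equal count shifted sideways. Grey bars are medians of all coding genes in the same range of counts. IER3 stands highest at 6 pentamers, and EGR1 (1) and JUNB (2) lie above MYC and DUSP1 (4 each).

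With lowered or mutated DDX3, MYC and IER2 were lower in the nuclear-labelled libraries of both sets. MYC fell to 244 and 255 CPM in sgDDX3, against 422 and 458 CPM in sgGal4 (-0.79 ± 0.08, adjusted p = 7.8e-09). In the transgene set it fell to 399 and 405 CPM without transgene, against 700 and 707 CPM in uninfected cells (-0.80 ± 0.06, adjusted p = 9.0e-21). WT cells lay between, at 539 and 538 CPM, higher than cells without transgene (no transgene against WT -0.40 ± 0.06, adjusted p = 3.8e-08) and lower than uninfected cells (-0.40 ± 0.06, adjusted p = 2.3e-08). None of these groups overlapped. With the left-out R376C library kept, the no-transgene and WT differences kept their size (-0.80, -0.40 and -0.40) and were no longer called.

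IER2 fell to 79.4 and 85.2 CPM in sgDDX3, against 122 and 129 CPM in sgGal4 (-0.57 ± 0.10, adjusted p = 9.4e-05). It fell to 80.9 and 86.3 CPM without transgene, against 126 and 136 CPM in uninfected cells (-0.64 ± 0.08, adjusted p = 1.3e-10) and against 120 and 129 CPM in WT cells (-0.56 ± 0.08, adjusted p = 2.9e-08). WT and uninfected cells overlapped for IER2 (-0.08 ± 0.07), unlike for MYC. The sgDDX3 and no-transgene libraries are separate samples with separate controls.

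All 6 mutants had lower nuclear-labelled MYC and IER2 than WT. MYC ranged from 307 to 395 CPM over 11 mutant libraries (median 352), below both WT libraries and also below both libraries without transgene. The changes against WT, which share the WT libraries, were -0.47 ± 0.07 in R376C, -0.52 ± 0.06 in R534S, -0.59 ± 0.06 in R326H, -0.60 ± 0.06 in G325E, -0.64 ± 0.06 in R351W and -0.65 ± 0.06 in T532M. IER2 ranged from 76.3 to 101 CPM (median 82.4), again with 11 of 11 libraries below WT, but overlapping the cells without transgene. Its changes ran from -0.45 ± 0.08 in R534S to -0.68 ± 0.08 in R326H. The F test for differences among the 6 mutants did not call MYC (adjusted p = 0.16) or IER2 (adjusted p = 0.18) in these libraries, which does not show that the mutants act alike. MYC was called in it without T532M replicate 2 (adjusted p = 9.6e-04) or R534S replicate 2 (adjusted p = 0.036), and IER2 without T532M replicate 1 (adjusted p = 0.0046). The largest adjusted p against WT was 2.3e-06 for MYC and 1.8e-05 for IER2, both in R376C, whose single library is assumed to vary like the others. With the left-out R376C library kept, MYC was called in no mutant and IER2 in R326H alone.

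In the cytoplasmic-labelled libraries MYC had the same direction with fewer calls. MYC had 98.5 and 125 CPM in sgDDX3 and 254 and 253 CPM in sgGal4 (-1.12 ± 0.19, adjusted p = 0.0071), a call lost without sgDDX3 replicate 1 (-0.98) or 2 (-1.33) or sgGal4 replicate 1 (-1.15). It had 130 and 123 CPM without transgene and 195 and 202 CPM in uninfected cells (-0.69 ± 0.11, adjusted p = 1.1e-05), and 157 and 161 CPM in WT. Against WT, MYC was called lower in G325E, R326H, R351W and T532M (-0.37 to -0.69), and was not called in R376C (-0.25 ± 0.14) or R534S (-0.32 ± 0.11, adjusted p = 0.063). The G325E call was lost without G325E replicate 2 (-0.40) or WT replicate 2 (-0.49), and the R351W call without R351W replicate 2 (-0.21) or WT replicate 1 (-0.40) or 2 (-0.35). The 11 mutant libraries ranged from 97.6 to 139 CPM for MYC and from 65.0 to 86.0 CPM for IER2, all below both WT libraries. IER2 was called lower in R326H (-0.42 ± 0.13) and R351W (-0.44 ± 0.13), both calls lost without either WT library. The R326H call was also lost by DESeq2 (-0.42), with the replicate number as a block (-0.42) and without R326H replicate 1 (-0.52) or 2 (-0.32), and the R351W call without R351W replicate 1 (-0.28). IER2 was called in no other mutant in these libraries, and not with sgDDX3 (-0.40 ± 0.19, adjusted p = 0.29) or without transgene against uninfected cells (-0.26 ± 0.12, adjusted p = 0.12), where it was called without no-transgene replicate 2 (-0.45). Whether the change of IER2 differs between the labelled fractions with sgDDX3 was tested and not called (-0.13 ± 0.23, adjusted p = 0.92).

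**Figure D4:**
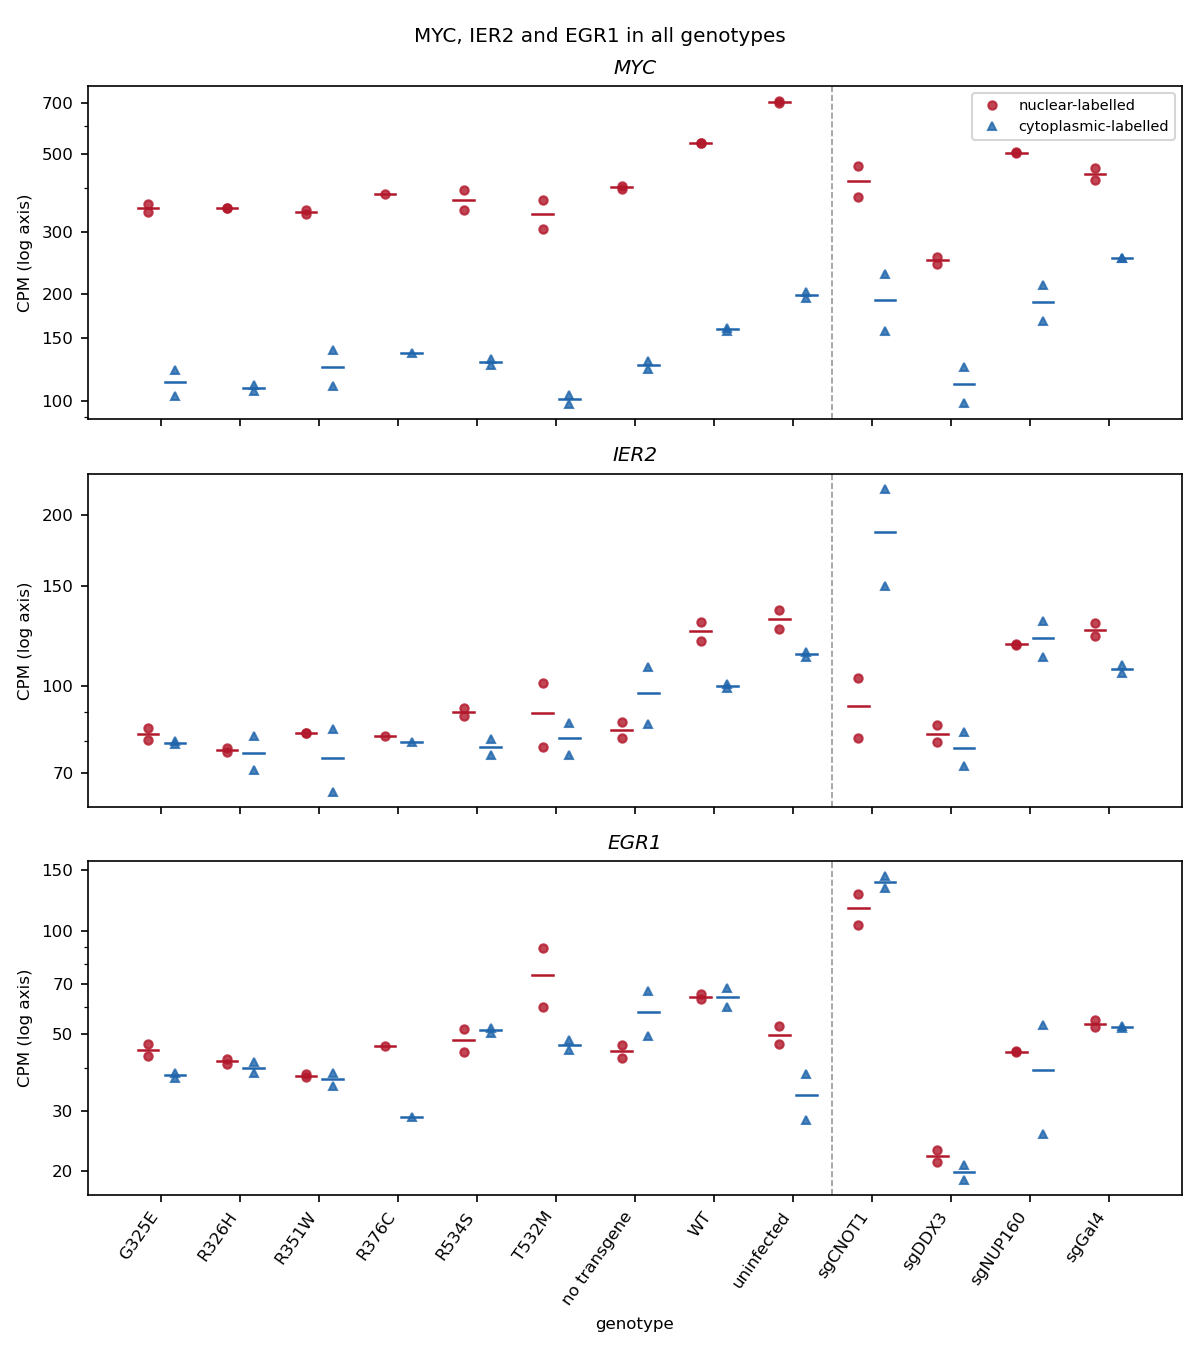
CPM (log axes) of MYC, IER2 and EGR1 in all 13 genotypes, transgene set left and guide set right of the dashed line, red circles for nuclear-labelled and blue triangles for cytoplasmic-labelled libraries, each point 1 library with bars at the means. In nuclear-labelled libraries all mutant points for MYC (307 to 395 CPM) and IER2 (76.3 to 101 CPM) lie below WT, and EGR1 is highest with sgCNOT1 and lowest with sgDDX3.

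Of the members called lower with sgDDX3, EGR1 had the largest change. FOS had a larger negative value in nuclear-labelled libraries (-1.73 ± 0.74, adjusted p = 0.073) that was not called. EGR1 had 23.0 and 21.3 CPM in sgDDX3 and 55.1 and 52.4 CPM in sgGal4 nuclear-labelled libraries (-1.26 ± 0.13, adjusted p = 9.8e-09). In cytoplasmic-labelled ones EGR1 had 18.9 and 20.9 CPM against 52.3 and 52.9 CPM (-1.34 ± 0.26, adjusted p = 0.013). The sgDDX3 libraries were the lowest of all genotypes in both fractions. The cytoplasmic-labelled call was lost without sgDDX3 replicate 1 (-1.28) or 2 (-1.44) or sgGal4 replicate 1 (-1.37). In the transgene set the picture depended on the control. In nuclear-labelled libraries EGR1 had 46.5 and 42.8 CPM without transgene, 63.3 and 65.3 CPM in WT and 52.8 and 47.0 CPM in uninfected cells. It was called lower without transgene than in WT (-0.51 ± 0.11, adjusted p = 2.2e-04) and not than in uninfected cells (-0.15 ± 0.11, adjusted p = 0.29). WT was called above uninfected cells there (0.36 ± 0.10, adjusted p = 0.0087), a call lost without WT replicate 2 (0.33) or uninfected replicate 2 (0.27). In cytoplasmic-labelled libraries EGR1 was higher without transgene, at 67.0 and 49.3 CPM, than in uninfected cells, at 28.3 and 38.5 CPM (0.76 ± 0.16, adjusted p = 3.2e-04). It was also higher in WT, at 60.0 and 68.0 CPM (0.92 ± 0.15, adjusted p = 1.4e-04). Cells without transgene and WT did not differ by a call (-0.16 ± 0.15, adjusted p = 0.58).

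Of the members, EGR1 and JUN had the smallest p in the F test for differences among the 6 mutants, in both labelled fractions. In nuclear-labelled libraries EGR1 was lower than WT in G325E (-0.50 ± 0.10), R326H (-0.60 ± 0.11), R351W (-0.76 ± 0.11), R376C (-0.47 ± 0.14) and R534S (-0.40 ± 0.11), and T532M had 60.0 and 88.9 CPM against 63.3 and 65.3 CPM in WT (0.21 ± 0.10, adjusted p = 0.12). The R534S call was lost without R534S replicate 2 (-0.29), and T532M was called higher without its replicate 1 (0.48). The R376C call was lost by DESeq2 (-0.47), with the replicate number as a block (-0.46) and without either WT library. JUN had 39.6 and 42.4 CPM in R534S and 37.7 and 44.7 CPM in T532M, against 22.9 and 27.6 CPM in WT, and was called higher in R534S (0.71 ± 0.12), T532M (0.70 ± 0.12) and G325E (0.33 ± 0.12). The G325E call was lost by DESeq2 (0.34) and with no filter on low counts (0.32). It was also lost without either G325E library (0.28 and 0.38) or WT replicate 1 (0.21). The F test among mutants called EGR1 (adjusted p = 2.1e-09), JUN (adjusted p = 1.9e-08) and JUNB (adjusted p = 0.0017), 3 of 10 members against 26.5% of all genes, and 5 without T532M replicate 2. In cytoplasmic-labelled libraries it called JUN (adjusted p = 0.039) and EGR1 (adjusted p = 0.046), against 4.85% of all genes. Both calls were lost by DESeq2 and without any 1 library of G325E, R351W, R534S or T532M, and 1 of them without either R326H library. There EGR1 was lower than WT in 5 mutants, from -0.48 ± 0.15 in T532M to -1.17 ± 0.21 in R376C, and not called in R534S (-0.33 ± 0.15, adjusted p = 0.18). The T532M call was lost without T532M replicate 1 (-0.40) or without either WT library, and the R326H call without R326H replicate 2 (-0.64) or WT replicate 1 (-0.62). All 11 mutant libraries lay between 28.8 and 52.1 CPM, below both WT libraries.

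ZFP36, IER3, FOS and FOSB were each called in some of the mutants. ZFP36 had 15.3 and 14.5 CPM in T532M and 7.47 and 7.57 CPM in WT nuclear-labelled libraries (1.01 ± 0.21, adjusted p = 5.7e-05), and all 11 mutant libraries lay above WT. It was also called in R326H (0.58 ± 0.20) and R534S (0.57 ± 0.21). Both calls were lost without either WT library, by DESeq2 (0.58 in each), with no filter on low counts (0.56 and 0.55) and with the R376C library kept. The R326H call was also lost without R326H replicate 1 (0.68) or 2 (0.48), and the R534S call without R534S replicate 1 (0.33). IER3 was lower in T532M (-0.80 ± 0.20, adjusted p = 6.5e-04) and G325E (-0.49 ± 0.17, adjusted p = 0.030). The T532M call was lost without T532M replicate 1 (-0.49) or WT replicate 1 (-0.53). The G325E call was lost by DESeq2 (-0.50), without any 1 of its libraries and without WT replicate 1 (-0.22). FOS was lower in R351W (-1.32 ± 0.47, adjusted p = 0.045), on 9 and 11 reads in R351W and 24 and 29 reads in WT. This call was lost by DESeq2 (-1.33), with no filter on low counts (-1.32) and without any 1 of the 4 libraries. FOSB was lower in T532M in cytoplasmic-labelled libraries, at 4.30 and 2.15 CPM, against 7.43 and 8.60 CPM in WT (-1.30 ± 0.38, adjusted p = 0.015), a call lost without T532M replicate 2 (-0.97) or WT replicate 2 (-1.18). DUSP1 was called in no mutant.

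In counts over the nuclear-labelled libraries, 1 member was called higher and 4 lower in G325E, where 8.62% of all genes were called higher, 8.65% lower and 17.3% in either direction. In R326H 1 was higher and 3 lower (9.03%, 8.65% and 17.7% of all genes), and in R351W 0 and 4 (7.51%, 7.52% and 15%). In R376C 0 were higher and 3 lower (1.12%, 1.63% and 2.75%). In both R534S and T532M 2 were higher and 3 lower, where 10.2%, 10.2% and 20.4% of all genes were called in R534S and 17.5%, 17.7% and 35.1% in T532M. Where edgeR called 0 higher, DESeq2 did too, and ZFP36 in R351W (0.42) was the member with a positive value and an unadjusted p under 0.05.

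In the cytoplasmic-labelled libraries 0 members were called higher in any mutant by edgeR or DESeq2. Called lower were 2 in G325E (2.21% of all genes higher, 3.94% lower, 6.15% in either direction), 3 in R326H (1.91%, 3.32% and 5.23%), 3 in R351W (2.2%, 3.46% and 5.65%), 1 in R376C (0.097%, 0.73% and 0.827%) and 3 in T532M (6.83%, 7.88% and 14.7%). In R534S (3.11%, 4.27% and 7.39%) edgeR and DESeq2 both called 0, and the unadjusted p was under 0.05 for JUN, JUNB and DUSP1 with higher values and for EGR1, MYC and IER2 with lower ones; these 3 were the only positive values with such a p among all mutants. Without single libraries the counts of G325E, R326H, R351W and T532M went down to 1, in each case without a WT library, and for G325E and R326H also without replicate 2 of the mutant. At 14598 and 17530 genes tested, the median change over all genes was within 0.02 of 0 in each. With the nuclear-labelled replicate 2 of R376C kept, which was close to the cytoplasmic-labelled libraries in MALAT1 and in reads in no gene, the spread widened and 0, 1, 0, 0, 1 and 2 members were called against WT, in the order of the mutants above. With sgDDX3, 1 member (FOSB) was called higher and 3 lower in nuclear-labelled libraries, where 16.4% of all genes were called higher, 14.9% lower and 31.3% in either direction. In cytoplasmic-labelled libraries 0 were called higher, by edgeR and DESeq2 and at an unadjusted p under 0.05, and 2 lower (1.08%, 1.68% and 2.77% of all genes), with 0 called without sgDDX3 replicate 1 or 2 or without sgGal4 replicate 1. FOSB had 2.91 and 3.28 CPM in sgDDX3 and 1.10 and 1.83 CPM in sgGal4 nuclear-labelled libraries (1.27 ± 0.42, adjusted p = 0.021), a call lost by DESeq2 (1.23) and without sgDDX3 replicate 2 (1.18) or sgGal4 replicate 1 (0.78).

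Within the transgene set, FOS, FOSB, JUN and EGR1 were higher in cytoplasmic-labelled libraries of infected than of uninfected cells, with or without WT DDX3. In cytoplasmic-labelled libraries FOS had 5.71 and 7.54 CPM without transgene, 6.95 and 7.11 CPM in WT and 1.01 and 1.29 CPM in uninfected cells. JUN had 44.2 and 49.3 CPM without transgene, 35.0 and 32.9 CPM in WT and 13.1 and 17.7 CPM in uninfected cells. Uninfected cells did not overlap either infected group. In the guide set, on the same scale, FOS averaged 1.30 CPM in sgGal4, 1.04 in sgDDX3, 3.75 in sgCNOT1 and 7.68 in sgNUP160. Uninfected cells averaged 1.15 CPM. JUN averaged 17.2, 16.2, 18.0 and 41.8 CPM in these guide groups, in that order, and 15.4 CPM in uninfected cells. The part of infection was not tested. Against uninfected cells, FOS changed by 2.47 ± 0.46 without transgene and 2.58 ± 0.45 in WT, FOSB by 1.61 ± 0.41 and 1.69 ± 0.40, JUN by 1.57 ± 0.17 and 1.12 ± 0.17, and DUSP1 by 1.00 ± 0.26 (called) and 0.60 ± 0.27 (not called, adjusted p = 0.16). The FOSB calls were lost without uninfected replicate 1 (1.30 without transgene, 1.39 in WT), and in WT also without WT replicate 2 (1.57). EGR1 changed by 0.76 ± 0.16 and 0.92 ± 0.15, both called. Directly between cells without transgene and WT, FOS (-0.10 ± 0.36), FOSB (-0.08 ± 0.36), JUN (0.44 ± 0.16), EGR1 (-0.16 ± 0.15) and DUSP1 (0.40 ± 0.25) were not called. JUNB was called higher without transgene (0.82 ± 0.22), except without uninfected replicate 2 (0.65), and not in WT (0.51 ± 0.23, adjusted p = 0.16).

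Against uninfected cells, 6 members were called higher and 1 lower without transgene in cytoplasmic-labelled libraries, where 14% of 17530 genes were called higher, 11.8% lower and 25.8% in either direction. In WT 4 were called higher and 1 lower, against 4.54%, 3.73% and 8.27%. The WT count fell from 5 to 3 without WT replicate 2 or uninfected replicate 1. In nuclear-labelled libraries 1 was called higher and 2 lower without transgene, against 19.7%, 19.3% and 39% of 14598 genes, and 3 higher and 1 lower in WT, against 10.9%, 10.3% and 21.2%. There JUN rose in both, by 0.99 ± 0.13 without transgene and 0.52 ± 0.13 in WT, the second call being lost without WT replicate 2 (0.37), and FOS in WT by 1.62 ± 0.51 on 24 and 29 reads in WT and 2 and 12 reads in uninfected cells, a call lost without WT replicate 1 (1.56) or uninfected replicate 1 (0.86). The WT count there fell to 2 without WT replicate 2 and to 0 with the R376C library kept. Against WT, 1 member was called higher and 3 lower without transgene in nuclear-labelled libraries (9.23% of all genes higher, 8.73% lower, 18% in either direction), and 0 higher and 1 lower in cytoplasmic-labelled ones (4.2%, 4.19% and 8.4%), where DESeq2 also called 0 higher and JUN had a positive value with an unadjusted p under 0.05. The 1 was MYC (-0.36 ± 0.11), a call lost without WT replicate 1 or 2 or no-transgene replicate 2, and the 4 were JUN (lost without WT replicate 1, at 0.35), EGR1, IER2 and MYC, of which 0 were called with the R376C library kept.

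With sgNUP160, 7 members rose in cytoplasmic-labelled libraries and 3 in nuclear-labelled ones, and 0 fell by edgeR or DESeq2 in either. An unadjusted p under 0.05 with a lower value was reached by EGR1 alone, in nuclear-labelled libraries (-0.29). In cytoplasmic-labelled libraries 7.05% of all genes were called higher, 8.13% lower and 15.2% in either direction, with a median of 1.00 over the members and 0.03 over all genes. In nuclear-labelled libraries 7.36% were called higher, 8.54% lower and 15.9% in either direction, with medians of 0.19 and -0.01. FOS had 5.08 and 10.3 CPM in sgNUP160 and 1.40 and 1.21 CPM in sgGal4 cytoplasmic-labelled libraries (2.60 ± 0.52, adjusted p = 0.0053). FOSB had 9.03 and 13.6 CPM in sgNUP160 and 2.93 and 2.59 CPM in sgGal4 (2.11 ± 0.41, adjusted p = 0.0044). JUN had 27.4 and 56.1 CPM in sgNUP160 and 21.0 and 13.3 CPM in sgGal4 (1.35 ± 0.33, adjusted p = 0.015). The groups did not overlap, and sgNUP160 replicate 2 was the higher in each.

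JUNB (1.01 ± 0.21), DUSP1 (1.11 ± 0.33), IER3 (0.99 ± 0.29) and ZFP36 (0.95 ± 0.31) were the other members that rose with sgNUP160 in cytoplasmic-labelled libraries. These calls leaned on single libraries: 0 members were called without sgNUP160 replicate 2, 4 without the other sgNUP160 library, and 1 and 2 without sgGal4 replicate 1 and 2, and DESeq2 called 4. In nuclear-labelled libraries JUN had 41.2 and 35.9 CPM in sgNUP160 and 22.2 and 19.4 CPM in sgGal4 (0.87 ± 0.16, adjusted p = 1.7e-04). FOSB (1.44 ± 0.41) and JUNB (0.49 ± 0.14) were the other members called there, and only JUN was called without sgGal4 replicate 1. The FOSB call was also lost by DESeq2 (1.39) and without sgNUP160 replicate 1 (1.13), and the JUNB call without sgNUP160 replicate 2 (0.41). EGR1, IER2 and MYC, the members lower with sgDDX3, were not called with sgNUP160 in either fraction. The ratio of labelled fractions was called for 0 members with sgDDX3 (2.37% of all genes) and 0 with sgNUP160 (3.66%) by edgeR and by DESeq2. An unadjusted p under 0.05 was reached by FOSB with sgDDX3 (1.52) and by FOS (-2.58), DUSP1 (-0.88) and MYC (0.58) with sgNUP160, where the median over all genes was 0.13. Without sgNUP160 cytoplasmic-labelled replicate 1 FOS was called (-2.96).

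In unperturbed control cells most of these mRNAs were relatively enriched in the nuclear-labelled libraries. Within sgGal4, 8 of 10 members were called higher in nuclear-labelled than in cytoplasmic-labelled libraries and 0 lower, where 29.7% of 17858 genes were called higher, 35.4% lower and 65% in either direction. The median log2 difference was 0.80 over the members and -0.22 over all genes. JUNB (1.63 ± 0.19), MYC (1.27 ± 0.16), IER3 (1.22 ± 0.27) and DUSP1 (1.18 ± 0.28) had the largest differences, followed by ZFP36 (0.82 ± 0.29), JUN (0.77 ± 0.27), IER2 (0.71 ± 0.16) and EGR1 (0.52 ± 0.19). FOS (0.41 ± 0.64) and FOSB (-0.56 ± 0.49) were not called. Without sgGal4 nuclear-labelled replicate 1 the count was 5, since JUN (0.58), EGR1 (0.41) and ZFP36 (0.86) were then not called, and DESeq2 called 6, without JUN and EGR1. Of genes called lower, the members held 0 by DESeq2 too, and none had a negative value with an unadjusted p under 0.05.

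A wider list of 54 other immediate early and AU-rich mRNAs also held more rises than falls with sgCNOT1. In nuclear-labelled libraries 25 of 40 tested rose and 6 fell, with a median of 0.66, where 26.5% of all genes rose and 23.1% fell. In cytoplasmic-labelled ones 15 of 38 rose and 2 fell, with a median of 0.65, against 13% and 9.01% of all genes. KLF2, which encodes a Krüppel-like transcription factor, rose by 3.56 ± 0.29 and 3.63 ± 0.38 in nuclear-labelled and cytoplasmic-labelled libraries. FOSL2, an AP-1 subunit gene, rose by 2.66 ± 0.28 and 2.08 ± 0.30. BTG2, which encodes an antiproliferative protein that binds the CCR4-NOT deadenylase, rose by 2.40 ± 0.09 and 1.45 ± 0.17, the kinase gene SGK1 by 2.39 ± 0.11 and 1.59 ± 0.20, and ZFP36L2, a relative of ZFP36, by 1.96 ± 0.09 and 1.65 ± 0.16. ATF3 (-1.30 ± 0.19 and -0.97 ± 0.29) and KLF10 (-1.28 ± 0.15 and -2.12 ± 0.26) fell in both fractions. With sgDDX3, 11 of 40 rose and 8 fell in nuclear-labelled libraries (16.4% and 14.9% of all genes), and 2 of 38 rose and 2 fell in cytoplasmic-labelled ones (1.08% and 1.68%). With sgNUP160, 10 rose and 4 fell in nuclear-labelled libraries (7.36% and 8.54%), and 9 rose and 3 fell in cytoplasmic-labelled ones (7.05% and 8.13%).

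Genes that act upstream of the members or in mRNA decay were counted in the same way with sgCNOT1, where again 26.5% of all genes rose and 23.1% fell in nuclear-labelled libraries and 13% and 9.01% in cytoplasmic-labelled ones. The upstream list of 22 held kinases, transcription factors and cofactors known to act on immediate early genes, and also SPRY2, SPRY4, SPRED1 and SPRED2. SRF is on this list and on the wider list above. Of these 22, 10 rose and 2 fell with sgCNOT1 in nuclear-labelled libraries and 2 rose in cytoplasmic-labelled ones. RPS6KA1, a ribosomal S6 kinase gene, rose by 1.32 ± 0.11 and 1.03 ± 0.18, and MRTFA, a cofactor of serum response factor, by 0.59 ± 0.10 and 0.49 ± 0.16. The 2 that fell in nuclear-labelled libraries were SRF and MAP2K2, named after their values were seen. Of 24 decay factors, 9 rose and 6 fell in nuclear-labelled and 0 rose and 3 fell in cytoplasmic-labelled libraries by edgeR, with CNOT1 itself at -4.22 ± 0.08 and -4.53 ± 0.22 and the decapping enzyme gene DCP2 at -0.58 ± 0.09 and -0.63 ± 0.20. Of 20 abundant housekeeping mRNAs, 2 rose and 12 fell in nuclear-labelled libraries and 0 rose and 13 fell in cytoplasmic-labelled ones. GAPDH changed by -1.02 ± 0.06 and -1.32 ± 0.20, PPIA by -0.82 ± 0.07 and -0.89 ± 0.19, and EEF2 by -0.77 ± 0.05 and -0.57 ± 0.17.

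The members fell into loose groups across the 13 genotypes. As a description, over genotype means of log2 CPM centred on each set, IER2 and MYC correlated at r = 0.88 and JUNB and EGR1 at r = 0.86 in nuclear-labelled libraries. In cytoplasmic-labelled libraries JUN and DUSP1 correlated at r = 0.91, FOS and JUN at 0.86 and FOS and FOSB at 0.83. Over all 45 pairs the median r was 0.31 (-0.44 to 0.88) in nuclear-labelled and 0.46 (-0.30 to 0.91) in cytoplasmic-labelled libraries. The points share libraries, scaling and, for FOS and FOSB, very low counts. Among 10290 other genes, the pattern most like that of IER3 was that of MLLT10 (r = 0.99), that of JUNB was RHOB, itself on the wider list (r = 0.97), that of EGR1 was ACTN4 (r = 0.96), that of IER2 was MSL3 (r = 0.96), that of MYC was LINC02616 (r = 0.95), that of JUN was DEDD2 (r = 0.93), that of ZFP36 was SLC2A1 (r = 0.93) and that of DUSP1 was DIPK1A (r = 0.86), each over 13 genotypes of nuclear-labelled libraries. FOS and FOSB were too low for this comparison. In the order of nuclear-labelled means, neighbouring genotypes did not overlap in 5 of 12 steps for MYC, EGR1 and JUN, in 4 for IER3, in 3 for IER2 and JUNB, in 2 for FOS, FOSB and DUSP1 and in 1 for ZFP36. MYC ran from sgDDX3 at the bottom (250 ± 7.81 CPM) to uninfected cells at the top (703 ± 4.72 CPM), and IER2 from R326H (76.9 ± 0.822 CPM) to uninfected cells (131 ± 7.03 CPM).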

How the data were processed

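RNA sequencing of nuclear- and cytoplasmic-labelled fractions of K562 cells was analysed from the raw counts per gene that the authors deposited for each library. The submitters' processing notes name STAR 2.7.5a and the build GRCh38, and which gene models were counted is not stated there. Libraries were directional and depleted of ribosomal RNA, per the labels' protocols, so the count column of the matching strand (column 4) was used. Rows that name no gene were left out of library sizes. They held 25.1% to 73.2% of all nuclear-labelled reads and 58.4% to 74.0% of all cytoplasmic-labelled ones. The share of reads in no gene, 5.14% to 10.5% and 50.4% to 69.2%, is of reads in a gene, in no gene or ambiguous between genes.

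Counts were fitted with edgeR 4.0.16 (robust quasi-likelihood test, TMM, filterByExpr) in R 4.3.3, once for each set and labelled fraction and once for the ratio of fractions, with Benjamini-Hochberg adjustment over all genes tested; the steps were tested on simulated data. Alternatives were DESeq2 1.42.0, its size factors, no filter on low counts, a replicate block, keeping the R376C library left out, and leaving out each library. Intervals and p-values cover the spread between libraries only. No chi-square comparison of replicate counts found a pair within sampling noise. Chi-square per degree of freedom was 27.6 for sgCNOT1 cytoplasmic-labelled and 13.0 for sgCNOT1 nuclear-labelled libraries. It was 12.9 for cytoplasmic-labelled libraries without transgene. Other pairs used ran from 2.0 to 8.1, so the sgCNOT1 replicates were among the least alike. The members, the lists and the comparisons were chosen with earlier results of these data known. All 10 members were tested in every comparison, but not all are named in the text of each. Genes named from each other list were taken from those called in both labelled fractions with sgCNOT1. They were up to 5 with the largest rise and up to 3 with the largest fall, ranked by the nuclear-labelled change.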

Additional observations from a re-analysis of the deposited data

Results flagged for a closer look

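The change of IER2 with sgCNOT1 differed between the labelled fractions: the log2 ratio of nuclear-labelled over cytoplasmic-labelled change was -1.27 (interaction test in edgeR, adjusted p = 8.5e-04).

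In 8 further cases every library of the tested genotype moved one way in nuclear-labelled libraries and the opposite way in cytoplasmic-labelled ones. In these cases the difference itself was not tested. They were picked from the members by this separation, which can arise by chance with so few libraries a group. Its frequency over all genes was not counted. No case was called in nuclear-labelled libraries. By edgeR, FOSB in T532M was called in cytoplasmic-labelled ones (adjusted p = 0.015). So were JUNB (adjusted p = 0.0062) and EGR1 (adjusted p = 3.2e-04) without transgene against uninfected cells. The remaining cases were called in neither fraction. The nuclear-labelled minus cytoplasmic-labelled log2 fold change was 1.90 for FOSB in T532M against WT (0.60 ± 0.37 and -1.30 ± 0.38) and 0.38 for JUN in R326H against WT (0.26 ± 0.12 and -0.12 ± 0.16). Without transgene against uninfected cells it was -0.92 for JUNB (-0.11 ± 0.10 and 0.82 ± 0.22) and -0.92 for EGR1 (-0.15 ± 0.11 and 0.76 ± 0.16). It was -0.37 for JUNB without transgene against WT and -0.36 for JUNB in R351W against WT. In R376C against WT, with 1 library in each fraction, it was 0.55 for JUNB and 1.28 for ZFP36.

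The nuclear-labelled R376C replicate 2, used in no comparison, had 4.87 CPM of FOS, 5.20 CPM of FOSB and 8.77 CPM of ZFP36 on total gene counts, each above both WT nuclear-labelled libraries (2.66 and 2.44, 2.33 and 3.28, and 7.53 and 7.66 CPM) and below both WT cytoplasmic-labelled ones (6.98 and 7.11, 7.46 and 8.60, and 14.2 and 10.9 CPM). Its MALAT1 level, 19578 CPM, and its 62.8% of reads in no gene were close to those of the cytoplasmic-labelled libraries.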

How the results depend on the processing

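No gene comparison that was called changed sign under any alternative run, but uncalled ones did, among them JUN (-0.39 to 0.40) and MYC (-0.19 to 0.04, nuclear-labelled) with sgCNOT1 and EGR1 with sgNUP160 (-0.97 to 0.07), the first and last in cytoplasmic-labelled libraries. Of 124 gene comparisons called among 320, 55 were called in every alternative. By number of members called, DESeq2 gave 4 with sgNUP160 in cytoplasmic-labelled libraries (7 in the report), 3 for G325E against WT in nuclear-labelled ones (5) and 0 for differences among mutants in cytoplasmic-labelled ones (2). Keeping the R376C nuclear-labelled replicate 2, whose MALAT1 (19578 CPM) and share of reads in no gene (62.8%) were near those of cytoplasmic-labelled libraries, gave 0 for no transgene against WT (4), WT against uninfected (4), G325E (5), R351W (4) and R376C (3), 1 for R326H (4), R534S (5) and among mutants (3), and 2 for T532M (5).

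The replicate numbers were not taken to pair the libraries, since not every same-numbered pair had a correlation over 0.1 (0 of 6 pairs in nuclear-labelled guide libraries, and 3 of 6 in cytoplasmic-labelled ones, with a median of 0.104). With the replicate number as a block, the count among mutants in cytoplasmic-labelled libraries was 0, and no other count moved by over 1.5 times.

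Leaving out 1 library at a time, cytoplasmic-labelled counts ranged from 3 to 6 for sgCNOT1, 0 to 2 for sgDDX3, 0 to 4 for sgNUP160, 3 to 6 for sgCNOT1 against sgNUP160, 0 to 2 for no transgene against WT, 3 to 4 for WT against uninfected, 1 to 2 for G325E, R326H and R351W, 1 to 3 for T532M and 0 to 2 among mutants. Nuclear-labelled counts ranged from 4 to 7 for sgCNOT1, 1 to 3 for sgNUP160, 2 to 3 for WT against uninfected, 3 to 5 for G325E and 3 to 5 among mutants. Ratio counts ranged from 1 to 3 for sgCNOT1 and 0 to 1 for sgNUP160, and those of the fractions in sgGal4 from 5 to 8. The causes were not tested. With 2 libraries a group, and with FOS and FOSB on few reads, depth and replicate number limit these calls.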
